A study of Mus musculus with 2 samples.

Results

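The glutathione and thioredoxin systems of mouse colorectal tumours were followed through 10 genes: Gpx1, Gpx2, Prdx1, Txnrd1, Nqo1, Gclc, Gclm, Srxn1, Hmox1 and Nfe2l2. The 10 genes were taken by symbol from the 32285 genes of the deposited matrices, and all 10 were present in both. Tumours were induced with AOM-DSS, that is, azoxymethane followed by the colitis-inducing agent dextran sulfate sodium, and were profiled by 10x Genomics single-cell RNA sequencing of intestine. The WT library came from Mtch2fl/fl mice, and the cKO library from Mtch2fl/fl VilCre mice, in which the Villin promoter drives Cre in intestinal epithelium, so both carry floxed Mtch2 and only cKO carries Cre. The tumours of each genotype were pooled into 1 library, the sources used here do not give the number or age of the mice, and no test between genotypes was possible. Levels below are UMIs (unique molecular identifiers, which count RNA molecules) summed over the cells of a class, per 1000000 UMIs of that class (CPM). Each ratio is the log2 of the cKO level over the WT level, and every interval is a 95% interval that covers counting error only.

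Glutathione peroxidases and peroxiredoxins remove hydrogen peroxide and lipid or organic peroxides, and glutathione and thioredoxin return them to the reduced state. Glutamate-cysteine ligase makes the first and limiting step of glutathione synthesis, thioredoxin reductase keeps thioredoxin reduced, and sulfiredoxin repairs over-oxidised peroxiredoxins. Many of these enzymes are targets of NRF2, the transcription factor encoded by Nfe2l2, which binds antioxidant response elements once its inhibitor KEAP1 is inactivated. In the gut, GPX2 is known as the glutathione peroxidase of the epithelium and of the crypt base.

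Short stretches upstream of 6 members are shown because the antioxidant response element is the feature by which NRF2 is known to bind these genes. They are RefSeq sequences of GRCm38.p6, read 5′ to 3′ on the strand of the gene, from a table that held promoters (250 bases before to 50 after the start site) for 8 of the 10 members. Capitals mark matches, on either strand, to TGACNNNGC, the core of the element, or to TGANTCA, a motif that can overlap it.
Prdx1, chr4:116685439-116685538, plus strand: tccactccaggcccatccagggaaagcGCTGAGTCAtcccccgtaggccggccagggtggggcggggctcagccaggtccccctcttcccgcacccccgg
Srxn1, chr2:152105404-152105503, plus strand: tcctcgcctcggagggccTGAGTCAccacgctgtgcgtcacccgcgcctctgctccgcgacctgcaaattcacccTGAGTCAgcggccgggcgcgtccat
Gclm, chr3:122245407-122245506, plus strand: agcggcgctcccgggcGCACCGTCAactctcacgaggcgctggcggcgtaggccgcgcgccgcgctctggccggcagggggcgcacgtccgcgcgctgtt
Txnrd1, chr10:82859056-82859155, plus strand: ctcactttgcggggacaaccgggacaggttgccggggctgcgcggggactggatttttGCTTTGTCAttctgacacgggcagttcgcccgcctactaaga
Nfe2l2, chr2:75704814-75704913, minus strand: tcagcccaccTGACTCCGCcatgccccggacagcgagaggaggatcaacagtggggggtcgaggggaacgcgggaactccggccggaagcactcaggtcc
Gpx2, chr12:76795605-76795704, minus strand: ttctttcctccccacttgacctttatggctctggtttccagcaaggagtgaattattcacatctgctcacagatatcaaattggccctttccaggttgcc
TGACNNNGC matched in 5 of the 8 members with a promoter (Prdx1, Txnrd1, Gclm, Srxn1 and Nfe2l2), and in 12.4% of 32851 promoters of the same length. For both motifs members were counted by gene, with a match in any window, and all promoters by single window, so the units differ. The match of Srxn1 lies 29 bases after the start site and is not shown. TGANTCA matched in 2 members, Prdx1 and Srxn1, and in 7.81% of all promoters; Prdx1 holds a further match outside the stretch shown, and the table has 3 windows for Txnrd1, of which 1 holds the match. The windows of Gpx1, Gpx2 and Nqo1 held neither, and a match or its absence describes letters only.

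Clusters of cells were named from markers, without using the members, Mtch2 or sex-linked genes to cluster. Of 7245 WT and 4388 cKO cells kept, 3393 and 2149 were epithelial-like, in 12 clusters. All 10 of the pan-epithelial markers were above 10 CPM there in both libraries, and they summed to 12709 CPM (WT) and 11741 CPM (cKO). All 10 also reached 10 CPM in T-like and fibroblast-like cells, so that count does not separate the classes. Their summed level there was lower, at 1576 and 959 CPM in T-like and 3760 and 1579 CPM in fibroblast-like cells. Median depth of the epithelial-like cells was 14734 UMIs in WT and 24350 in cKO. Mtch2 stood at 93.5 CPM in epithelial-like WT cells and 23.5 CPM in cKO cells, although whether the counted reads lie in the deleted part is not given. Cells with Xist UMIs and no Y-linked UMIs (called female here) and the reverse (called male) numbered 1050 and 1196 among epithelial-like WT cells, against 329 and 1193 in cKO. The libraries therefore differed in depth and in the mix of sexes, and 22 barcodes occurred in both.

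In epithelial-like cells Gpx2, which lies on chromosome 12 at chr12:76792333-76795554 of GRCm38 on the minus strand and overlaps Fntb on the other strand, differed most between the libraries, and the other members differed little. Gpx2 stood at 884 CPM in WT (interval 878 to 889.6) and 1251 CPM in cKO (1243 to 1259), a log2 ratio of 0.50 (0.49 to 0.52). Gclm, the modifier subunit of glutamate-cysteine ligase, was at 110.3 (WT) and 131 CPM (cKO), a ratio of 0.25 (0.21 to 0.29). None of the 9 members with at least 10 CPM in either library was past 1.5-fold, the size used in place of a test, against 1.98% of 9400 genes that reached that level. The median ratio of the 9 members was 0.04, and that of all such genes was -0.02. Intervals lay above 0 for 4 of the 9 members (26.5% of all genes) and below 0 for 2 of them (35.6%).

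By role, the regulator comes first. Nfe2l2 was at 147 (WT) and 135 CPM (cKO), a ratio of -0.12 (-0.16 to -0.08), which is the largest downward ratio among the 9. Gclc, the catalytic subunit of glutamate-cysteine ligase, stood at 90.4 and 92.9 CPM, with a ratio of 0.04 whose interval (-0.01 to 0.09) holds 0. The pair of subunits therefore differed in their ratios, with the intervals of Gclc and Gclm apart.
Gpx1, the ubiquitous cytosolic glutathione peroxidase, was at 434 (WT) and 436 CPM (cKO), a ratio of 0.01 (-0.01 to 0.03). Its interval lies far from that of Gpx2, so the pair of peroxidases also differed from each other in ratio.
Prdx1, a cytosolic peroxiredoxin that thioredoxin recycles, stood at 833 and 858 CPM, a ratio of 0.04 (0.03 to 0.06). Txnrd1, cytosolic thioredoxin reductase, stood at 244 and 264 CPM, a ratio of 0.11 (0.08 to 0.14). Srxn1, sulfiredoxin, stood at 28.7 and 27.0 CPM, a ratio of -0.09 with an interval ending at -0.0012. These small ratios exceed counting error alone, and with 1 library per genotype a genotype difference and a difference between mice cannot be told apart.
Hmox1, which breaks down haem and releases iron, stood at 15.0 and 14.8 CPM, a ratio of -0.02 (-0.14 to 0.09). Nqo1, a quinone reductase widely used as a readout of NRF2, was under 10 CPM in both libraries, at 7.92 and 7.36 CPM.

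**Figure D1:**
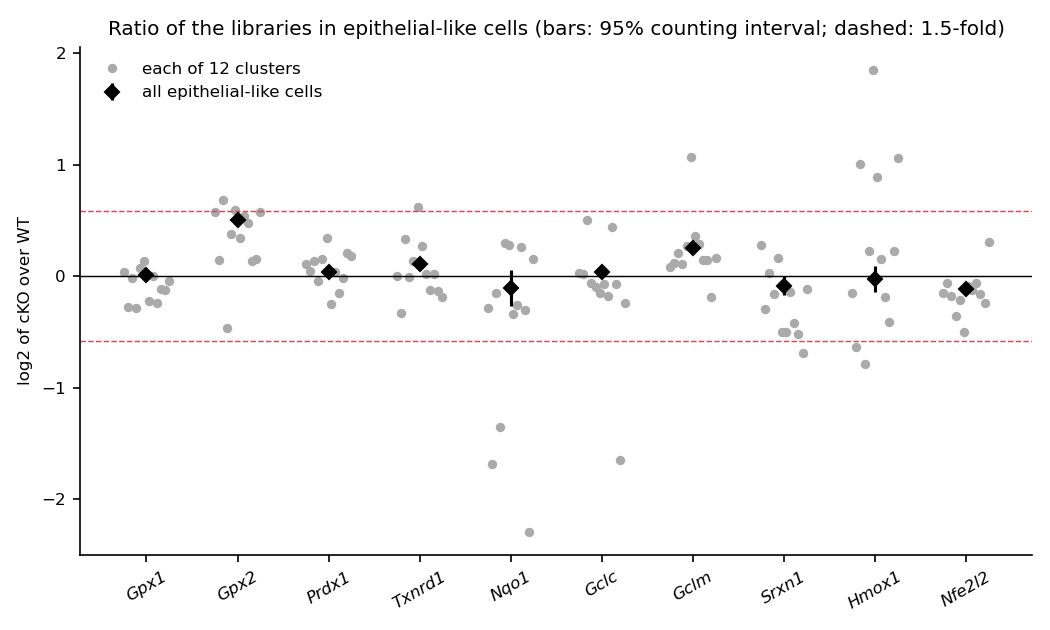
Log2 of cKO over WT for each member (y axis) in all epithelial-like cells (black diamonds with 95% counting intervals) and in each of the 12 epithelial-like clusters (grey circles). Gpx2 has the highest diamond at 0.50, below the dashed line at 1.5-fold, and all diamonds lie between the dashed lines.

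Across the 12 epithelial-like clusters Gpx2 was higher in cKO in 11, each with an interval above 0, and lower in 1. The clusters are parts of the same pooled libraries, so they are not replicates of a genotype. The share of all genes with such agreement was not computed. Its highest level was in cluster 11, led by Myl7, Gpx2, Birc5 and the antimicrobial lectin Reg3b, with mitotic genes among its markers, at 2159.6 (WT) and 3135 CPM (cKO) (ratio 0.54). The shallow cluster 16, led by Mptx2 and Ube2c, followed at 1878 and 2095 CPM (ratio 0.16). Cluster 13, led by the Paneth and goblet-type genes Defa24, Lyz1 and Spink4, stood at 1470.1 and 2047 CPM (ratio 0.48). Cluster 3, led by Saa1 and by Krt20, a keratin of mature colonocytes, stood at 1054 and 1698 CPM and had the highest ratio, 0.69. In the stem-type cluster 1, led by Spock2 and holding Lgr5 among its leading genes, Gpx2 was at 305 and 455 CPM (ratio 0.58). The lowest level of WT was in cluster 7, led by Clca3a2 and Egfr, at 244 CPM, against 368 CPM in cKO.
The level of Gpx2 in WT thus spanned 8.86-fold over the clusters. Its median ratio over the clusters was 0.43, against 0.50 in all epithelial-like cells, where the clusters had different shares of the UMIs. Cluster 1 held 19.4% of them in WT and 11.4% in cKO, and cluster 11 held 11.3% and 14.7%. The part of these shares in the ratios was not tested. The exception in direction was cluster 4, led by S100g, Mptx2 and Tgm4, where Gpx2 was at 841 (WT) and 609 CPM (cKO), a ratio of -0.47 (-0.51 to -0.42). In that cluster the median depth was 7657 UMIs in WT and 49493 in cKO, and its cKO cells with a sex call were 3 female and 161 male, against 131 and 124 in WT; their part in the ratio was not tested. Without cluster 4, an alternative chosen after its values were seen, the ratio of Gpx2 in all epithelial-like cells was 0.60, past 1.5-fold. Gpx2 was past 1.5-fold in clusters 3 and 7 alone of the 12. In cluster 3, 2 of 10 measured members passed that size (Gpx2 and Hmox1), against 5.25% of genes, and in cluster 7, 4 of 9 did, against 28.3%. All of these were higher in cKO. In cluster 16, 3 of 10 passed it, all lower in cKO, with Gclc at -1.65 (-2.94 to -0.63). Clusters 2 and 4 had 1 each, lower in cKO, and cluster 8 had 1, higher. The share of all genes was not computed for clusters 2, 4, 8 and 16.

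**Figure D2:**
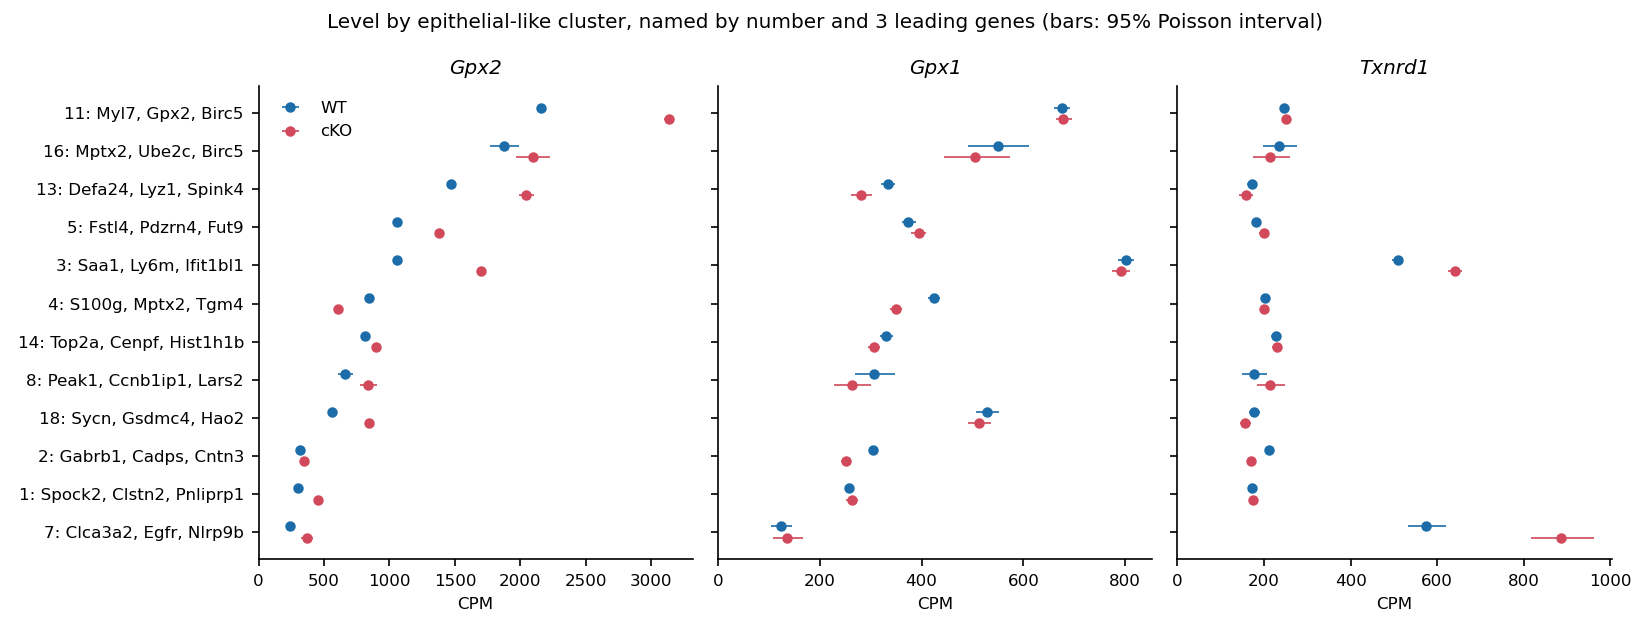
CPM of Gpx2, Gpx1 and Txnrd1 (x axes, linear, from 0) in each epithelial-like cluster, ordered by the Gpx2 level in WT, with WT in blue and cKO in red and 95% Poisson intervals. The cKO point of Gpx2 lies to the right of the WT point in all clusters but 4, while the largest downward ratio of Gpx1 is -0.28.

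The other members had their own patterns within the epithelium. Gclm was higher in cKO in 11 of 12 clusters, 5 of them with an interval above 0, and Nfe2l2 was lower in 11 of 12, 7 with an interval below 0. As for Gpx2, these clusters are not replicates. The median ratio of Gclm over the clusters was 0.15, against 0.25 in all epithelial-like cells. The exception of Nfe2l2 was cluster 18, led by Sycn and Gsdmc4, at 147 and 182 CPM. Nfe2l2 varied least of the members over the clusters, with 1.89-fold between its highest and lowest WT level.
Gpx1 was highest in cluster 3, at 801 (WT) and 792 CPM (cKO), and lowest in cluster 7, at 124 and 136 CPM. None of its 12 intervals lay above 0 and 4 lay below, the lowest ratio being -0.28 in cluster 4. Txnrd1 was highest in cluster 7, at 575 (WT) and 887 CPM (cKO), and next in cluster 3, at 508 and 642 CPM. All other clusters lay between 172 and 247 CPM in WT. Srxn1 was also highest in cluster 3, at 71.1 (WT) and 72.5 CPM (cKO), while the next highest cluster in WT, 18, had 31.3 CPM. Cluster 7 was shallow, with medians of 4199 and 2224.5 UMIs, and its Gclm and Hmox1 ratios rest on 35 and 42 UMIs and on 8 and 17 UMIs.
Hmox1 had no single direction. It was higher in cluster 3, at 16.5 (WT) and 33.3 CPM (cKO) (ratio 1.01, 0.75 to 1.27), and lower in clusters 2 (24.9 and 16.0 CPM) and 4 (22.1 and 12.8 CPM). Cluster 18 had a ratio of 1.06, from 16 and 36 UMIs. Gclc likewise was higher in cluster 3, at 89.8 and 127.7 CPM, and in cluster 13, at 112 and 152 CPM, and its intervals lay below 0 in 3 other clusters.

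Within epithelial-like cells called female, Gpx2 was at 910.2 (WT) and 1110.3 CPM (cKO), a ratio of 0.29 (0.25 to 0.32). In cells called male it stood at 771 and 1212 CPM, a ratio of 0.65 (0.63 to 0.67). The direction was thus the same in both, while the size differed, and the female cKO cells numbered 329. Gclm went in opposite directions, with 117 and 103 CPM in female cells (ratio -0.19) and 105 and 139 CPM in male cells (ratio 0.41). Prdx1 also split, with a ratio of -0.07 in female and 0.12 in male cells, and Hmox1 had 0.60 in female and -0.15 in male cells. Nfe2l2 was lower in both, by -0.09 with an interval that holds 0 in female cells and by -0.17 in male cells. No test of the difference between sexes was possible, since the cells of each sex come from an unknown number of mice in 1 pool.

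The share of epithelial-like cells with a Gpx2 UMI was 83.4% in both libraries, whose depths differed. After each cell was thinned to 2000 UMIs, leaving out 257 WT and 309 cKO cells that were shallower, the share was 53.3% in WT (Clopper-Pearson interval 51.5 to 55.0) and 58.5% in cKO (56.2 to 60.7). In T-like cells, which are not known as a source of Gpx2, the thinned shares were 15.5% and 17.05%, at median depths of 7442 and 7693.5 UMIs. Prdx1 was detected in 69.3% and 66.8% of thinned epithelial-like cells, and Gpx1 in 44.2% and 44.8%.

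The 7 lists of related genes were set beside the members in epithelial-like cells. Each list is given by how many of its genes with at least 10 CPM were past 1.5-fold, to be read beside 1.98% of all 9400 measured genes, and by how many were higher, beside 44.9% of all of them. In the glutathione system 0 of 27 were, with a median ratio of 0.09; 17 were higher and 10 lower. The largest ratios there were of Gsta3, a glutathione transferase, at 27.2 and 40.5 CPM (0.57), of Slc7a11, the cystine importer that feeds glutathione synthesis, at 30.4 and 43.0 CPM (0.50), and of Gstp1, at 16.9 and 12.6 CPM (-0.42). In the thioredoxin and peroxiredoxin system 0 of 19 were, with a median of 0.01. Prdx6, a peroxiredoxin that acts on phospholipid hydroperoxides, stood at 456 and 536 CPM (0.23), Prdx4 at 49.7 and 55.6 CPM (0.16) and Msrb3, a methionine sulfoxide reductase, at 128 and 108 CPM (-0.24).
Among other NRF2 targets 0 of 25 were past 1.5-fold, with 8 higher and 17 lower and a median of -0.02, equal at this rounding to that of all genes. Akr1b8, an aldo-keto reductase, stood at 21.4 and 31.8 CPM (0.57), Ephx1 at 10.9 and 14.8 CPM (0.44) and Abcc2, an efflux transporter of conjugates, at 73.4 and 57.2 CPM (-0.36). Of the genes that control NRF2, 0 of 15 were, with 4 higher, 11 lower and a median of -0.11. Mafk, a small MAF partner, stood at 63.4 and 55.0 CPM (-0.20), Park7 at 202 and 230.3 CPM (0.19) and Syvn1 at 28.3 and 24.9 CPM (-0.18).
Gpx1, Gpx2 and Txnrd1 are selenoproteins, and the list of selenoprotein synthesis genes and other selenoproteins had 1 of 19 past 1.5-fold. That gene was Selenom, a selenoprotein of the endoplasmic reticulum, at 40.2 and 22.2 CPM, a ratio of -0.86 (-0.94 to -0.77). Selenoh (0.21) and Selenof (0.19) had the next largest ratios, and the median was 0.06. The 3 superoxide dismutase and catalase genes measured had ratios of 0.08 for Sod2, -0.05 for Cat and 0.02 for Sod1. Of 8 measured sources of superoxide and hydrogen peroxide 0 were past 1.5-fold, with Xdh at 0.34, Nox1 at 0.16 and Noxa1 at 0.09.

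Outside the epithelium the members separated by cell class. Nfe2l2 was highest in neutrophil-like cells, at 920.4 (WT) and 855 CPM (cKO), and next in the macrophage and monocyte-like class (857 and 757 CPM); dendritic-like cells followed at 343 and 341 CPM. Hmox1 was highest in macrophage and monocyte-like cells (445 and 658 CPM), then in neutrophil-like cells, at 324 and 283 CPM, and was at or under 33.9 CPM in all 8 other classes compared. Srxn1 had its highest levels in the same pair of classes, at 106 and 104 CPM in neutrophil-like and 83.4 and 71.6 CPM in macrophage and monocyte-like cells. Txnrd1 followed that order at 559 and 425 CPM and at 391 and 377 CPM, with epithelial-like cells next.
Gpx1 was highest in macrophage and monocyte-like (686 and 785 CPM) and dendritic-like cells (615 and 805 CPM), whose intervals overlap in cKO. Prdx1 was highest in macrophage and monocyte-like cells (1094 and 889.7 CPM), ahead of epithelial-like cells. Of the same 10 classes, Gclm was highest in epithelial-like and neutrophil-like cells, the latter at 121 CPM in WT (99.6 to 145) and 113 CPM in cKO (98.2 to 129). Of the 10 classes, Gclc was highest in dendritic-like cells in WT (132 CPM, against 53.0 in cKO) and in mast and basophil-like cells in cKO (189 CPM, against 121 in WT, from 78 and 85 UMIs). The WT intervals of both classes overlap. Nqo1 stood out in endothelial-like cells, at 79.0 CPM in WT (51.1 to 117) and 40.3 CPM in cKO (24.2 to 62.9), from 25 and 19 UMIs.
A squamous-like cluster of 48 cells occurred in cKO alone, so no library comparison exists for it. There Nfe2l2 stood at 344 CPM, Gclm at 251 CPM and Gclc at 227 CPM, each above its epithelial-like level in either library, and Gpx2 stood at 683 CPM. Squamous-like cells with a sex call were 33 female and 0 male, against 329 and 1193 among epithelial-like cKO cells.

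**Figure D3:**
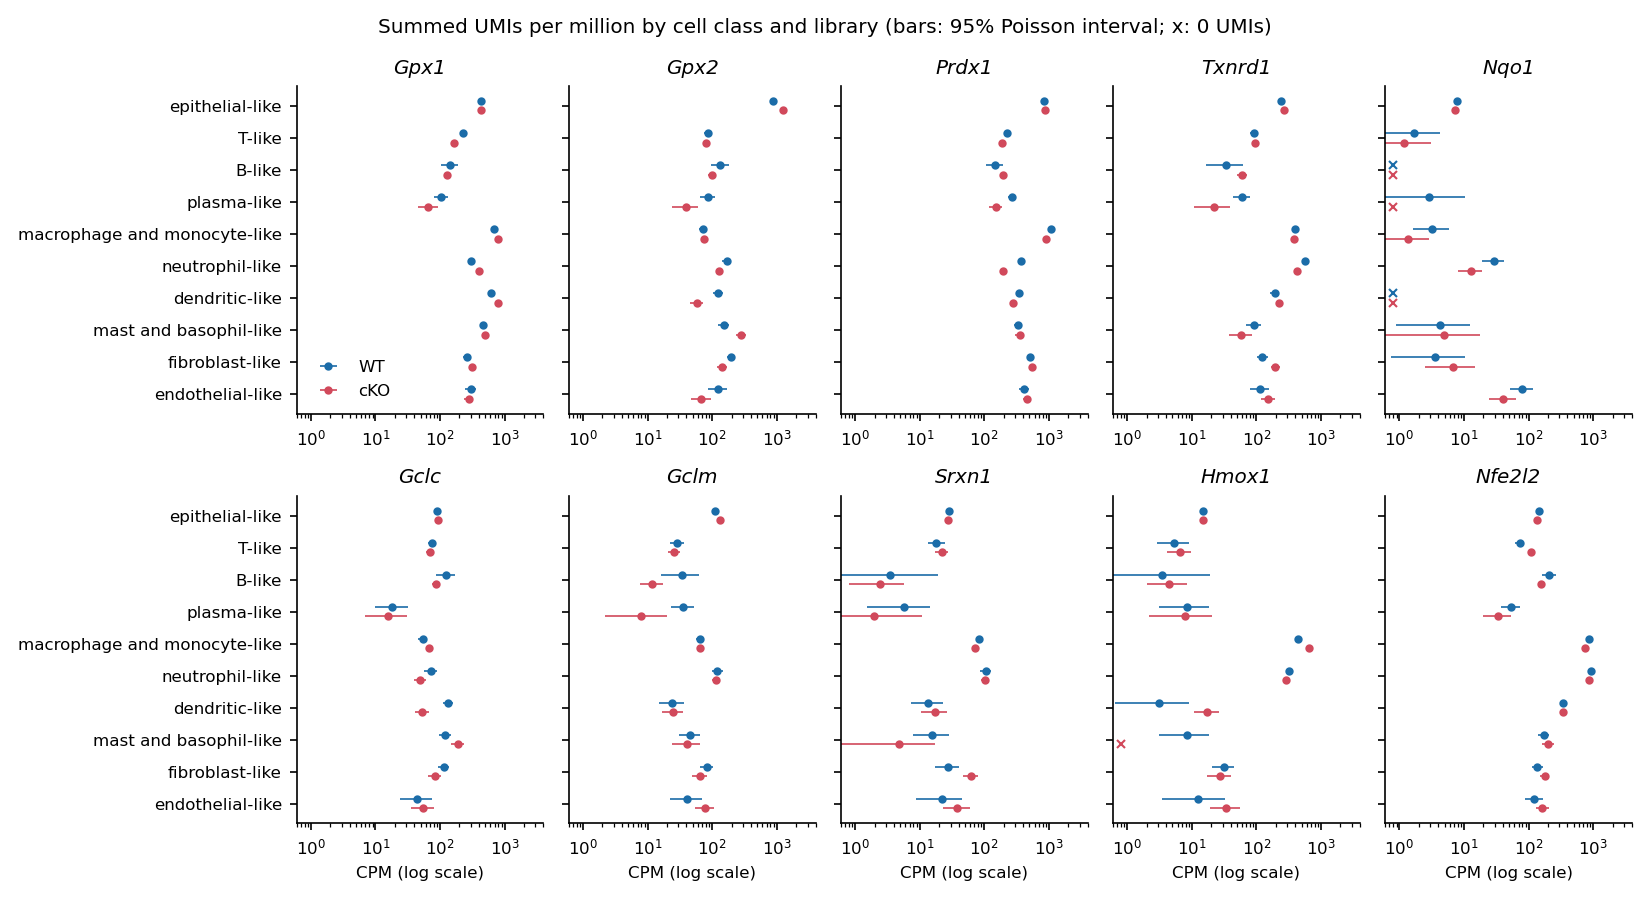
CPM (x axes, log scale) of each member in 10 cell classes, WT in blue and cKO in red, with 95% Poisson intervals; a cross marks 0 UMIs. Gpx2 is far to the right in epithelial-like cells, and Hmox1 and Nfe2l2 are far to the right in macrophage and monocyte-like and neutrophil-like cells.

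Gpx2 in non-epithelial classes was no higher than the spread of epithelial RNA. As a share of its epithelial-like level it ranged from 3.16% to 22.5% over 9 classes in each of the 2 libraries. Of those 18 shares, 10 lay within the range of the 10 epithelial markers in the same class and library, 8 below it and 0 above it. In T-like cells of WT, for example, Gpx2 was at 9.86% of its epithelial-like level, while the markers ranged from 10.0% to 16.5%. Gpx1 by contrast lay above the marker range in 17 of 18 and Nfe2l2 in 18 of 18. Prdx1 and Gclc lay above it in 17, Gclm and Hmox1 in 15, Txnrd1 in 14, and Srxn1 and Nqo1 in 13. Some of these shares rest on few UMIs and a low epithelial-like level. Nqo1 had 4 UMIs in T-like cells of each library, and Hmox1 in cKO had 4 in plasma-like and 9 in B-like cells. A share above the range is not read as expression in such cases.

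**Figure D4:**
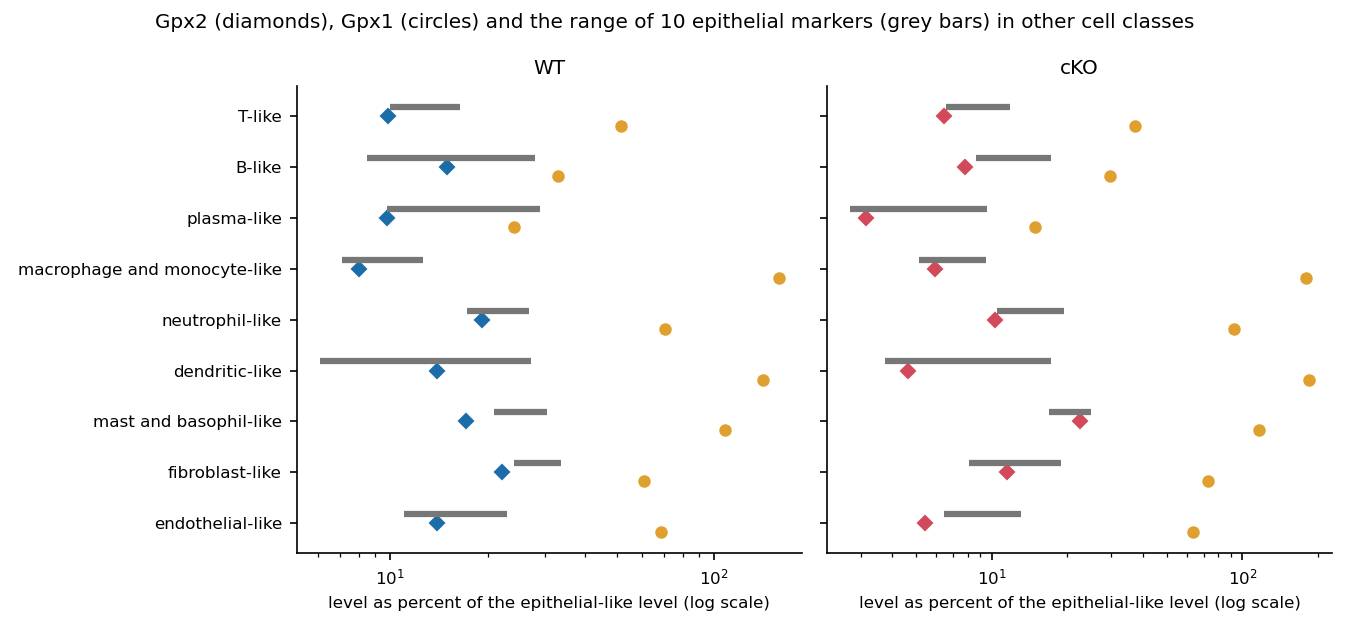
Level of Gpx2 (diamonds) and Gpx1 (circles) in 9 non-epithelial classes as a percent of the level in epithelial-like cells (x axes, log scale), with grey bars for the range of 10 epithelial markers in the same class and library. Gpx2 lies within or to the left of the bars throughout, and Gpx1 lies to the right of them in 17 of 18.

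In macrophage and monocyte-like cells 0 of 9 measured members were past 1.5-fold, against 12.8% of 8664 genes. The largest ratio was of Hmox1, at 0.56 (0.47 to 0.65). It was higher in cKO in both clusters of the class: in cluster 9, led by Lyz2 and Apoe, at 466 and 669 CPM, and in cluster 17, led by Ccl8 and Apoe, at 142 and 436 CPM, the last from 31 and 98 UMIs. By sex it did not keep its direction, with 536 and 368 CPM in female cells (ratio -0.54; 63 WT and 45 cKO cells) and 359.6 and 701 CPM in male cells (ratio 0.96; 78 and 163 cells). Intervals lay above 0 for 3 members, Hmox1, Gpx1 (0.19) and Gclc (0.35), against 13.9% of genes, and below 0 for 2, Prdx1 (-0.30) and Nfe2l2 (-0.18), against 18.1%. Prdx1 and Gclc had the opposite direction in female cells, and Gpx1 did in male cells. Nfe2l2 was lower in cluster 9, at 904 and 783 CPM, and higher in cluster 17, at 169 and 267 CPM from 37 and 60 UMIs.

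Neutrophil-like cells had 2 of 10 measured members past 1.5-fold, both lower in cKO, against 33% of 7466 genes past that size in either direction and 28.5% lower. The members were Prdx1, at 375 and 195 CPM (ratio -0.94), and Nqo1, at 28.9 and 12.7 CPM (ratio -1.18), the latter from 27 and 24 UMIs. Neither call held under every alternative: with the clusters weighted equally Prdx1 had a ratio of -0.40, and in male cells Nqo1 had -0.49. All genes measured in this class had a median ratio of -0.29, and the summed level of the epithelial markers was 2846 CPM in WT and 1584 CPM in cKO, with all 10 markers above 10 CPM in both; their part in these ratios was not tested. Intervals lay above 0 for 1 member, Gpx1 (5.26% of genes), and below 0 for 5 (23.4%). Relative to the median of all genes, Prdx1 stood at -0.65, Nqo1 at -0.89 and Gpx1 at 0.70, while Nfe2l2, Hmox1, Srxn1 and Gclm turned from negative to positive ratios (0.19, 0.10, 0.26 and 0.19).
The 2 neutrophil-like clusters had different levels of several members. Cluster 19, led by the chemokine genes Ccl3 and Ccl4, held Hmox1 at 736 (WT) and 1155 CPM (cKO), against 138 and 98.8 CPM in cluster 6, led by S100a9 and S100a8. Srxn1 had 275 and 368 CPM in cluster 19, against 29.5 and 48.1 CPM in the other cluster. Gclm stood at 224 and 349.6 CPM against 74.5 and 62.9 CPM, and Prdx1 at 822 and 657 CPM against 174 and 98.2 CPM. Nfe2l2 went the other way, being lower in cluster 19 (715 and 693 CPM) than in cluster 6 (1013 and 889 CPM). Cluster 19 made up 86 of 235 neutrophil-like cells in WT and 99 of 396 in cKO, and the member ratios of the whole class mix these shares. Within cluster 19, Hmox1 (0.65, 0.41 to 0.90) and Gclm (0.64, 0.19 to 1.11) were higher in cKO, and within cluster 6 Hmox1 was lower (-0.49, -0.87 to -0.09).

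**Figure D5:**
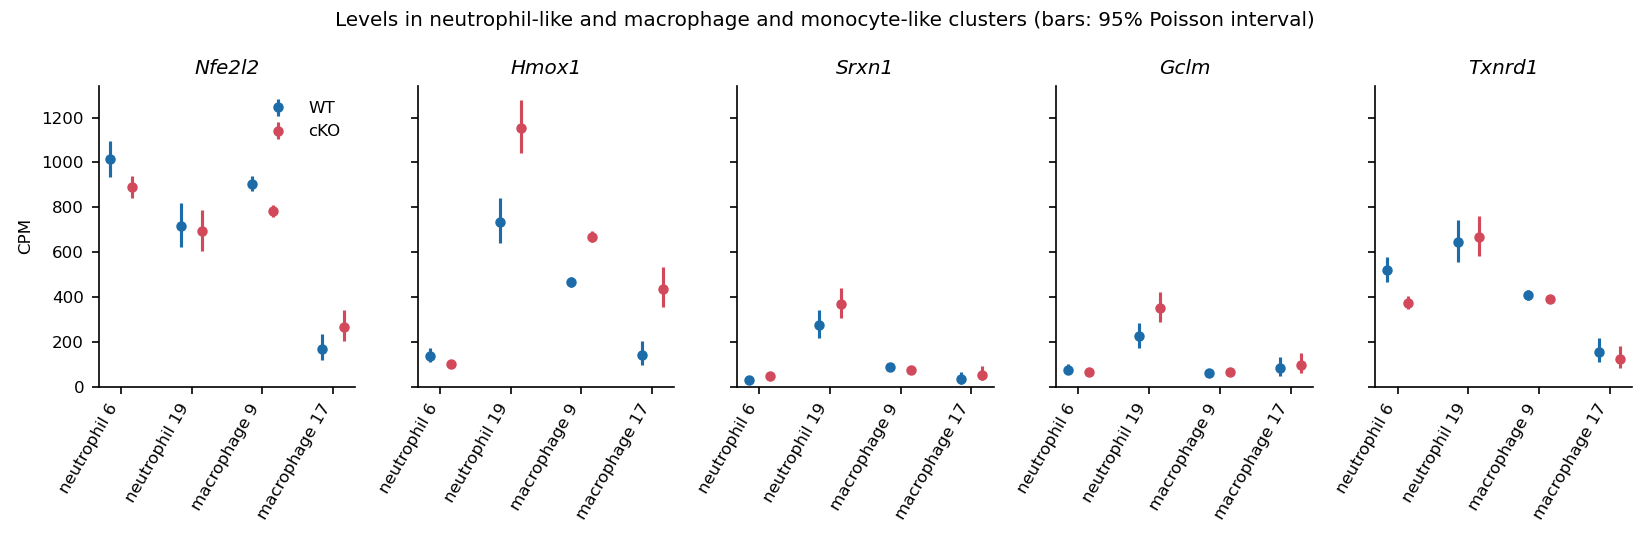
CPM (y axis, linear, from 0) of 5 members in neutrophil-like clusters 6 and 19 and macrophage and monocyte-like clusters 9 and 17, WT in blue and cKO in red, with 95% Poisson intervals. Hmox1, Srxn1 and Gclm are highest in neutrophil-like cluster 19 in both libraries, whereas Nfe2l2 is highest in cluster 6.

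In T-like cells 0 of 8 measured members were past 1.5-fold, against 8.96% of 9041 genes. Nfe2l2 was at 72.7 (WT) and 107 CPM (cKO), a ratio of 0.56 (0.30 to 0.83), and was higher in each of the 3 T-like clusters, with an interval above 0 in 1 of them. Gpx1 stood at 224 and 162 CPM, a ratio of -0.47 (-0.64 to -0.29), and was lower in each of the 3, with an interval below 0 in 1. Both directions also held in female and in male cells, although the interval of Nfe2l2 in female cells holds 0. Intervals lay above 0 for 1 member (9.79% of genes) and below 0 for 2 (11%), Gpx1 and Prdx1. Epithelial markers summed to 1576 CPM in WT and 959 CPM in cKO in this class, and their part in these ratios was not tested.

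Over 40 sums of cells, 1 per cluster or class and library with at least 50 cells, 24 of them epithelial, each member was set beside the genes whose log2(CPM + 10) varied most like its own. The sums share 2 libraries and the split into epithelial and other cells, so these are descriptions. Among the genes most like Gpx2 were Urah, with a Pearson r of 0.95, and Abhd11, with 0.92. Hmox1 was most like Sirpb1c, F10 and Fcgr4 (r 0.93 to 0.94), and Nfe2l2 like Clec5a, Nlrp3 and Pilrb1 (r 0.91), genes known from myeloid cells in the case of Fcgr4, Clec5a and Nlrp3. Gpx1 was most like Ldha, Gpi1 and Prelid1 (r 0.83 to 0.88), of which the first pair are glycolytic enzymes, and Prdx1 like Akr1a1, Prdx2 and Ppp1r14b (r 0.88 to 0.89). Gclm was most like Tpi1, Plin3 and Carhsp1 (r 0.83 to 0.86), and Srxn1 like Prdx5, Lipa and Cstb (r 0.81 to 0.83). Txnrd1 was most like Arrdc4, Slc49a4 and Wsb2 (r 0.77 to 0.81), Nqo1 like Lrg1, Nudt4 and Mindy1 (r 0.78 to 0.80), and Gclc like Smg1, St3gal3 and Pde4d (r 0.72). Among the members, r was 0.77 for Srxn1 with Hmox1 and 0.77 for Hmox1 with Nfe2l2, 0.74 for Gpx2 with Gclm, and -0.03 for Gclc with Gclm, the 2 subunits of one enzyme. Over the 24 epithelial sums alone, r was 0.26 for Srxn1 with Hmox1, -0.37 for Hmox1 with Nfe2l2 and 0.70 for Gpx2 with Gclm, so the first 2 of these pairs did not keep their values. In that set r was 0.84 for Gpx1 with Gclm and -0.80 for Txnrd1 with Nfe2l2.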

How the data were processed

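The deposited values are UMI counts per gene and barcode, not normalized, which, per the file headers, the authors made with Cell Ranger 7.2.0. Seurat 3.0 and mm10 appear in the submitters' processing notes. The matrices held 9445 WT and 6723 cKO barcodes with 116066712 and 97364087 UMIs. Barcodes under 500 genes or over 25% mitochondrial UMIs, and the highest Scrublet scores, in a number that grew with the barcodes of the library, were left out. Kept cells had medians of 3723 (WT) and 6927.5 (cKO) UMIs. They were clustered together with scanpy 1.11.5 and leidenalg 0.10.2 (2000 variable genes, 30 components, 20 neighbours, resolution 1) into 33 clusters.

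Altogether 3 clustering settings were looked at. The kept one separated a mitotic cluster, as another of the 3 also did, and resembled clusters already known from these data. It was chosen before any member ratio was computed. The rule that names clusters was set, and adjusted, after the clusters were seen. The 2 other settings were run as alternatives. In all, 4 clusters stayed unnamed; the largest, with 2432 WT and 447 cKO cells, had medians of 731 and 708 UMIs.

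The 10 members and all gene lists were chosen with earlier results of these data known. Ratios add 0.5 counts. Intervals are exact Poisson (levels), conditional binomial (ratios) and Clopper-Pearson (shares). The ratio intervals were run on simulated Poisson counts, which checks the computation only. Those counts hold no spread between cells, mice or libraries, so the run cannot show whether the intervals cover such spread. UMIs of 1 pooled library per genotype give no test. Classes were compared at 100 or more cells in each library; others are given as levels. Named genes are all 10 members, the 3 largest ratios of each list and the 3 genes most like each member, of which 1 is not reported here. Some members overlap other annotated genes, and whether reads were shared was not tested. Eid3 lies on the same strand as Txnrd1. Fntb (at Gpx2), Gm38560 (at Txnrd1) and Gm17494 (at Gclm) lie on the strand opposite to the member. Alternative filters, scalings, weights, clusterings and sexes were tried.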

Additional observations from a re-analysis of the deposited data

Results flagged for a closer look

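For 6 members the log2 ratio of cKO over WT had opposite signs in 2 cell classes, with both counting intervals excluding 0. The share of all genes that meet this rule was not computed, so the count is not read as a trait of the members. These differences between classes were not tested. Gpx1 had a ratio of 0.41 in neutrophil-like cells and -0.47 in T-like cells. Gpx2 had 0.50 in epithelial-like and -0.40 in neutrophil-like cells, where its level lay below the range of the epithelial markers in cKO. Prdx1 had 0.041 in epithelial-like and -0.94 in neutrophil-like cells, and Txnrd1 had 0.11 and -0.40 in the same classes. Gclc had 0.35 in macrophage and monocyte-like and -0.54 in neutrophil-like cells. Nfe2l2 had 0.56 in T-like and -0.18 in macrophage and monocyte-like cells. In neutrophil-like cells the median ratio of all genes was itself -0.29, and 27.5% of the measured genes were higher in cKO. Relative to that median, Gpx2 and Txnrd1 each stood at -0.10 there, while Prdx1 stayed further below 0, as given above.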

How the results depend on the processing

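Over 17 alternatives in epithelial-like cells the Gpx2 ratio stayed positive in all 17 (0.29 to 0.65) and that of Nfe2l2 negative in all 17. The median ratio of the members was -0.03 (-0.034) when per-cell CPM was averaged in place of summed UMIs, and lay between 0.02 and 0.08 otherwise. The count of members past 1.5-fold was 1 in place of 0 with female cells alone, with male cells alone and without cluster 4, the last chosen after seeing the data. That member was Hmox1 in female cells (0.60), and Gpx2 in male cells (0.65) and without cluster 4. Female cells reversed the epithelial-like ratios of Prdx1 (-0.069), Gclm (-0.19) and Srxn1 (0.058), and male cells that of Srxn1 (0.049). In macrophage and monocyte-like cells, female cells reversed Prdx1 (0.17), Gclc (-0.42) and Hmox1 (-0.54), male cells Gpx1 (-0.049), Leiden resolution 0.5 Gclc (-0.12), and averaged per-cell CPM Nfe2l2 (0.025). In neutrophil-like cells equal weights of the clusters reversed Gclc (0.028). The cause was not tested. The alternatives in these other classes and the 2 discarded clustering settings were added after seeing the data; those settings gave Gpx2 ratios of 0.50 and 0.52. No paired analysis was possible because each genotype has 1 library. Intervals cover counting error only, and the spread between mice or tumours is unknown; Nqo1 in epithelial-like cells and Hmox1 in lymphoid cells were too low for a ratio.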
